A study of Rattus norvegicus with 12 samples.

Results

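The nuclear genes of oxidative phosphorylation were examined in the renal cortex of obese and lean Zucker rats. Members were taken by symbol, as every gene of the deposited table named Nduf with a following a, b, c, s or v, Sdha to Sdhd, Uqcr, Cyc1, Cycs, Cox4 to Cox8 or Atp5, which gave 86 of 13151 genes. By complex there were 33 subunits of complex I, 4 of complex II, 9 of complex III, 15 genes placed with complex IV and 17 genes named for complex V. Cytochrome c (Cycs), 6 complex I assembly factors (Ndufaf genes) and Ndufa4l2 stood beside them. Cox7a2l is among the 15 genes of complex IV but is not counted below among the subunits proper. The symbols are older ones for 17 of the 86, Atp5 genes among them, which carry other names in the current rat annotation. Of the Atp5 genes 2, Atp5s and Atp5sl, are not counted as subunits of the enzyme. Subunits encoded in mitochondrial DNA were not analysed here.

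RNA was sequenced from whole renal cortex of male rats at 32 weeks of age, with 4 rats in each of 3 groups. Zucker lean (ZL) rats were the controls. Zucker fatty (ZF) rats, which lack a working leptin receptor in every tissue (the series text calls them leptin-deficient), were the model of obesity-related nephropathy (ORN), and ZF-SGLT2i rats were ZF rats given canagliflozin, an inhibitor of sodium-glucose cotransporter 2, at 10 mg/kg/day in the food, begun at 24 weeks and kept up for 8 weeks. The study followed ZL and ZF rats in a time course with kidney biopsies, and other ZF rats in a treatment study. The paper's text calls the sequenced untreated rats ZF. Its figure caption also names them nontreated ZF, the term for the untreated group of the treatment study. Lean rats are described only in the time course, so that biopsy and group cannot be told apart. The labels number the ZL rats 1 to 4, the ZF rats 2 to 5 and the ZF-SGLT2i rats 2, 3, 4 and 6, and values are always given in that order.

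Oxidative phosphorylation takes electrons from NADH through complex I and from succinate through complex II, passes them by way of complex III and cytochrome c to oxygen at complex IV, and uses the proton gradient so made to drive ATP synthase, complex V. Its subunits come mostly from nuclear genes scattered over the genome. The proximal tubule, which fills most of the renal cortex, depends on it for the ATP that drives reabsorption.

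Between 8886901 and 12210257 reads were on genes in the ZL rats, 8824980 and 11191377 in the ZF rats, and 8914666 and 10293049 in the ZF-SGLT2i rats. Values are normalized read counts (CPM): reads relative to library size with the authors' between-sample scaling factor, a scale on which the same gene can be compared between rats but genes of different length cannot be ranked. The tissue carried the markers of its label, since all 12 proximal tubule markers looked up were present, with the most reads on Lrp2 (megalin), and the 5 striated muscle genes present summed to no more than 1.53 normalized counts in any rat. A normalized count of 1 or more in 4 or more rats was required for testing, which 82 of the 86 members met. The 4 left out, Cox4i2, Cox6a2, Cox6b2 and Cox8b, are forms of complex IV subunits known from lung, muscle, testis or brown fat, and were at no more than 0.983 in any rat.

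Promoter sequences show what letters these genes share around their start sites. Windows of 300 bases, from 250 before to 50 after the start site in the RefSeq annotation of GRCr8, were at hand for 74 of the 86 members and were searched on both strands for the core letters bound by 4 factors known to act on respiratory genes. GCGCANGCG, the core of the NRF1 site, was in 21 of the 74 windows (28.4%), against 12.8% of the windows of genes tested and 6.26% of all 27457 windows. CCGGAAG, an ETS site of the kind GABPA binds, was in 20 (27.0%, against 17.3% and 9.22%). AAGGTCA, the site of the estrogen-related receptors (ERR), was in 11 (14.9%, against 2.90% and 4.37%), and AAGATGG, read by YY1, was in 17 (23.0%, against 8.31% and 7.30%). A match describes letters and not binding. For a member of each complex that had a match, and for Cycs, the 250 bases before the start site are given below from 5′ to 3′ on the gene's strand, with each match in capitals. Cycs lies at chr4:80984768-80985017 (minus strand), Ndufa12 at chr7:30658066-30658315 (plus), Sdhd at chr8:59850642-59850891 (minus), Uqcrq at chr10:38089979-38090228 (minus), Cox7a2 at chr8:89601150-89601399 (minus) and Atp5i, named Atp5me in GRCr8, at chr14:1464610-1464859 (plus).
Cycs: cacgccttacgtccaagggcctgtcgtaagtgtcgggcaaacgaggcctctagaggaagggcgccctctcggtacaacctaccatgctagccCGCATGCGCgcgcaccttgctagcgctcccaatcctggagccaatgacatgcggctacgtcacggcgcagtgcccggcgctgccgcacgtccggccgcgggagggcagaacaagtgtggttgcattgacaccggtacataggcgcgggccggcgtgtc
Ndufa12: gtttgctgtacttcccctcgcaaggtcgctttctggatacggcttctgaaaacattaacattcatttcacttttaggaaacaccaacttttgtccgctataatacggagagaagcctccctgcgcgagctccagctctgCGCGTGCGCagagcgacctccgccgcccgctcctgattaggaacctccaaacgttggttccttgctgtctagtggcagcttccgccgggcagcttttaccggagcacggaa
Sdhd: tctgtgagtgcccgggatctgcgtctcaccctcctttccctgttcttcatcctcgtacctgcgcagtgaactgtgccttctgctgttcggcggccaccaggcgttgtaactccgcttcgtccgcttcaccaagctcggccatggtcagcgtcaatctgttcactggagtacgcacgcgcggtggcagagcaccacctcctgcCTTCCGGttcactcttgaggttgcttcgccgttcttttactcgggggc
Uqcrq: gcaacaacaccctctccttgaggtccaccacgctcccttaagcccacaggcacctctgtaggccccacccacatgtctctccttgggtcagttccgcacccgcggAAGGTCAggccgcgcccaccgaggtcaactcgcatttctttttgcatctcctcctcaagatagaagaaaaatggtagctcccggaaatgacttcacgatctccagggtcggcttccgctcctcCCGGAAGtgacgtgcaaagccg
Cox7a2: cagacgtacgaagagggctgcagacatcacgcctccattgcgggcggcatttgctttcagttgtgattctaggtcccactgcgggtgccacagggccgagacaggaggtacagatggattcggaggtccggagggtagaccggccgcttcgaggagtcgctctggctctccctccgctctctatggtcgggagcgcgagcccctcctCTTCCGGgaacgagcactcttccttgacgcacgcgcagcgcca
Atp5i: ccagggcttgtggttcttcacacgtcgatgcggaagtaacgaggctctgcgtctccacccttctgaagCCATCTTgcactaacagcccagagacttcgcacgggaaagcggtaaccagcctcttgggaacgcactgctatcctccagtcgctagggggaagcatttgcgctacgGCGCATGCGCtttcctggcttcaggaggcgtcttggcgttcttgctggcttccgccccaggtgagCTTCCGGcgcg
In Cycs and Ndufa12 the capitals are NRF1 letters read on the opposite strand, and in Sdhd and Cox7a2 they are ETS letters on the opposite strand. Uqcrq holds an ERR match and then an ETS match, both on the gene's own strand. Atp5i holds YY1 letters, a run in which NRF1 matches on both strands overlap, and ETS letters close to the start site.

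The ZF and ZL groups were compared to ask how the respiratory chain differed in the obese kidney. Transcripts of the chain were lower in ZF rats across all complexes: 72 of the 82 members tested passed the limma test (adjusted p below 0.05 over all genes tested) and every one of the 72 was lower. None was higher. The medians of complexes I to V lay between -0.36 and -0.30, with a median log2 fold change of -0.35 over the 82 members (-21.7%), while the median over all 11633 genes tested was -0.0077. Cytochrome c fell most, by 46.5%. Among all genes tested, 18.8% were called, 10.6% lower and 8.19% higher. In 65 of the 82 members every ZF rat was below every ZL rat, against 10.3% of all genes tested.

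In this bulk tissue, fewer cells rich in mitochondria and less RNA of these genes per cell cannot be told apart. The size of the shift also depended on the scaling. With reads scaled by library size alone, leaving out the authors' scaling factors, which ran from 0.945 to 0.992 in ZL rats and from 1.01 to 1.05 in ZF rats, 40 members were lower (of all genes 609 of 11633, against 1232 with the factors), none was higher, and the median was -0.24 while that of all genes was 0.09. Of the called members described below, Ndufv1, Ndufaf3, Sdha, Sdhb, Sdhc, Uqcrc1, Uqcrc2, Cox4i1, Cox7b, Cox8a and Atp5a1 were no longer called with that scaling or with quantile normalization, and Uqcr10 with that scaling.

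**Figure D1:**
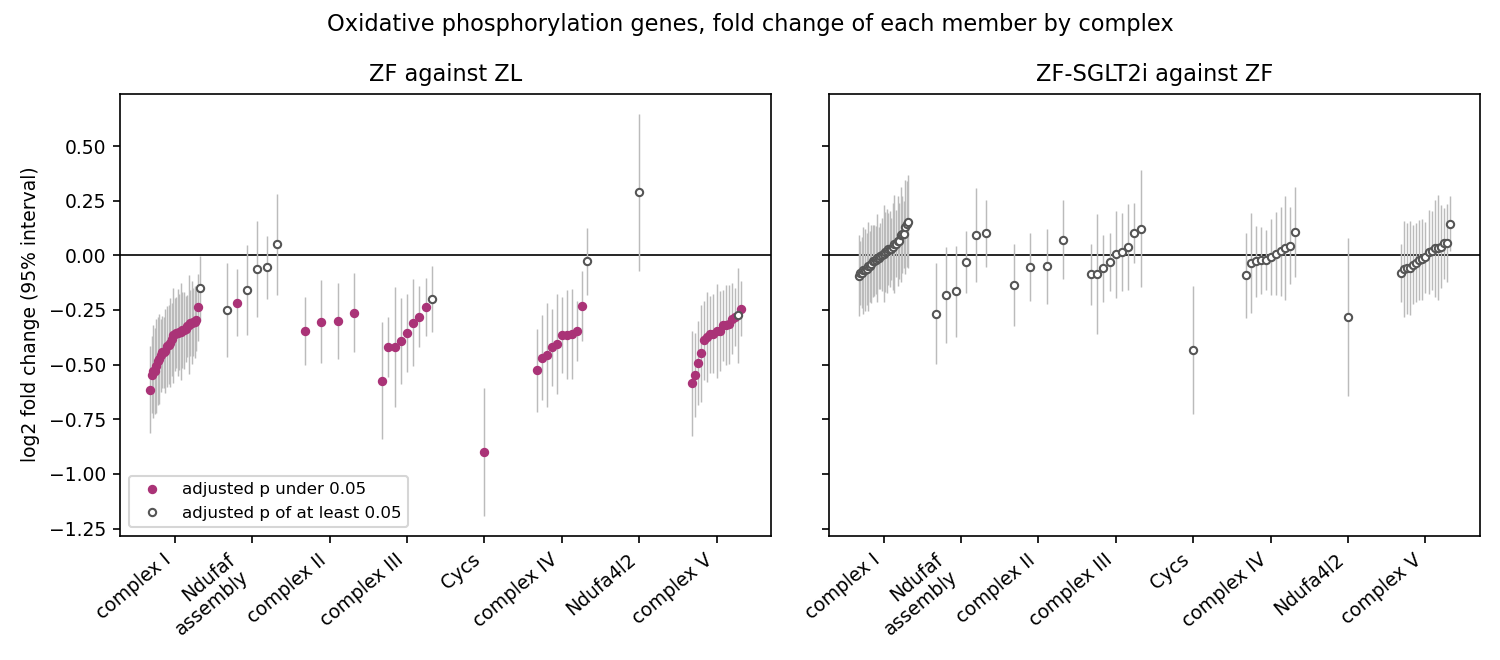
Log2 fold change of each member tested, grouped by complex, for ZF vs ZL (left) and ZF-SGLT2i vs ZF (right). Each point is a gene, gray lines are 95% intervals, and filled points passed the limma test; in ZF vs ZL most points of complexes I to V lie below 0 around -0.35 with Cycs at -0.90, and in ZF-SGLT2i vs ZF they lie around 0.

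In complex I, the entry point for electrons from NADH, 32 of 33 subunits were lower in ZF rats (median -0.36). In 32 of the 33 the ZF and ZL groups did not overlap, the exception being Ndufb11, where ZF rat 4 was above ZL rat 2. All 7 core subunits, which carry the flavin and the iron-sulfur clusters, were lower (median -0.34), as were 25 of the 26 other subunits (median -0.38). Ndufs6, an accessory subunit of the matrix arm that binds zinc, had the largest fall. Its normalized count was 25.3, 21.9, 21.2 and 24.0 in ZL rats, 14.4, 14.5, 16.6 and 13.6 in ZF rats and 16.4, 16.6, 18.4 and 14.4 in ZF-SGLT2i rats. All 8 ZF and ZF-SGLT2i rats were below the lowest ZL rat. From ZL to ZF the mean went from 23.1 ± 1.89 (SD, n = 4) to 14.8 ± 1.29, a log2 fold change of -0.61 (SE 0.0916, adjusted p = 0.000874).

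Ndufb10, an accessory subunit of the membrane arm, counted 66.7, 58.9, 66.2 and 67.4 in ZL rats, 39.0, 42.5, 50.6 and 44.7 in ZF rats and 44.9, 45.5, 48.7 and 40.8 in ZF-SGLT2i rats, and changed by -0.55 (SE 0.0812, adjusted p = 0.000864). Ndufa12, an accessory subunit added late in assembly, counted 69.5, 61.5, 67.5 and 53.8 in ZL rats, 39.5, 40.7, 48.3 and 44.6 in ZF rats and 45.9, 46.9, 57.2 and 43.5 in ZF-SGLT2i rats. It changed by -0.53 (SE 0.0993, adjusted p = 0.00344). For both, the ZL rats stood apart from the ZF rats, and the ZF-SGLT2i rats were mixed with the ZF rats.

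Of the core subunits, Ndufs1, which holds iron-sulfur clusters, counted 376, 361, 399 and 329.9 in ZL rats, 251, 277, 321 and 264 in ZF rats and 262, 262, 313 and 238 in ZF-SGLT2i rats. The log2 fold change from ZL to ZF was -0.40 (SE 0.0939, adjusted p = 0.011). Ndufv1, which binds NADH, counted 231, 236, 212 and 211 in ZL rats, 172, 189, 193 and 167 in ZF rats and 166, 172, 205 and 166 in ZF-SGLT2i rats, with a change of -0.30 (SE 0.0759, adjusted p = 0.0144). In neither gene did a ZF or ZF-SGLT2i rat reach the lowest ZL rat. The only complex I subunit not called, Ndufs4, an accessory subunit, counted 82.2, 77.2, 77.1 and 84.5 in ZL rats and 64.4, 75.0, 75.9 and 73.7 in ZF rats. Its groups did not overlap either, but the change was small, at -0.15 (95% interval -0.30 to -0.0046, adjusted p = 0.139).

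The 6 complex I assembly factors, which build the enzyme and are not part of it, had a median of -0.11. Of the 6, 1 was called (16.7%), a share near the 18.8% called over all genes tested. The gene called, Ndufaf3, had normalized counts of 23.2, 22.2, 24.3 and 26.0 in ZL rats, 19.1, 20.9, 20.1 and 21.5 in ZF rats and 22.9, 21.4, 22.9 and 20.6 in ZF-SGLT2i rats. Its change of -0.22 was just inside the threshold (SE 0.0718, adjusted p = 0.0499), and it was no longer called under 21 of 24 alternative settings. Whether assembly factors and subunits differ in response was not tested.

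Complex II oxidizes succinate and belongs to the citric acid cycle as well as to the respiratory chain. All 4 of its genes were lower in ZF rats (median -0.30). Its membrane anchor Sdhd counted 282, 277, 249.6 and 259 in ZL rats, 195, 204, 236 and 205 in ZF rats and 212, 199, 216 and 181 in ZF-SGLT2i rats, and changed by -0.35 (SE 0.073, adjusted p = 0.00629). The other anchor, Sdhc, counted 374, 362, 369.6 and 338 in ZL rats, 257, 308, 339 and 270.3 in ZF rats and 268, 267, 295 and 235 in ZF-SGLT2i rats. Its change was -0.30 (SE 0.088, adjusted p = 0.0287). Sdhd separated ZL from ZF without overlap, whereas ZF rat 4 reached the ZL range in Sdhc.

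The catalytic subunits of complex II overlapped as well, again through ZF rat 4. Sdhb, the iron-sulfur subunit, counted 264, 260.3, 265 and 231 in ZL rats, 184, 218, 234 and 195 in ZF rats and 201, 199.6, 217 and 183 in ZF-SGLT2i rats, a change of -0.30 (SE 0.0804, adjusted p = 0.0208). Sdha, the flavoprotein, counted 745, 726, 747 and 672 in ZL rats, 545, 629.5, 681 and 560.4 in ZF rats and 632, 630.2, 702 and 569 in ZF-SGLT2i rats. At -0.26 (SE 0.0842, adjusted p = 0.0435) it was called by a narrow margin. The call of Sdha was lost without any of ZL rats 1, 2 or 3, ZF rats 2, 3 or 5, or ZF-SGLT2i rats 2 or 3, and those of Sdhb and Sdhc without ZL rat 1 or 3 or ZF rat 2 or 5.

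Complex III hands electrons from ubiquinol to cytochrome c, and 8 of its 9 genes were lower in ZF rats (median -0.36). Uqcrb, a small subunit that helps bind ubiquinone, counted 114, 113, 119.5 and 90.4 in ZL rats, 64.1, 67.5, 86.2 and 75.0 in ZF rats and 81.3, 70.3, 100.2 and 68.8 in ZF-SGLT2i rats, and changed by -0.57 (SE 0.125, adjusted p = 0.00782). Uqcrq, another small subunit, counted 92.2, 88.8, 93.9 and 93.2 in ZL rats, 62.9, 70.1, 75.0 and 66.7 in ZF rats and 70.4, 73.4, 81.0 and 70.3 in ZF-SGLT2i rats. ZL and ZF did not overlap in either gene, and in Uqcrq every treated rat was below the ZL rats too. The change of Uqcrq was -0.42 (SE 0.0639, adjusted p = 0.000996).

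Uqcr10, also a small subunit, was at 15.6, 16.2, 14.5 and 16.7 in ZL rats, 9.97, 11.0, 11.1 and 14.4 in ZF rats and 12.1, 9.79, 13.1 and 8.81 in ZF-SGLT2i rats, with a change of -0.42 (SE 0.128, adjusted p = 0.0359). ZF rat 5 came close to ZL rat 3. Its call was lost without any of ZL rats 1, 2 or 4 or ZF rats 2, 3 or 4.

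The catalytic Rieske iron-sulfur protein, Uqcrfs1, counted 318, 313, 286 and 269 in ZL rats, 201, 228, 266 and 211 in ZF rats and 234, 226, 259 and 208 in ZF-SGLT2i rats, a change of -0.39 (SE 0.0919, adjusted p = 0.0107). The core proteins Uqcrc1 and Uqcrc2 changed by -0.24 (SE 0.0616, adjusted p = 0.0182) and -0.31 (SE 0.0923, adjusted p = 0.0334). Both lost their calls without ZL rat 1 or ZF rat 2, and Uqcrc2 also without ZL rat 3 or ZF rat 3 or 5. Cyc1, the cytochrome c1 heme protein, was the member of complex III that was not called. It counted 322, 328, 298 and 282 in ZL rats, 242, 289, 282 and 256 in ZF rats and 261, 255, 269.6 and 239.5 in ZF-SGLT2i rats. ZL and ZF overlapped, at a log2 fold change of -0.20 (95% interval -0.35 to -0.049, adjusted p = 0.0631).

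Cycs encodes somatic cytochrome c, which carries electrons from complex III to complex IV and also starts the caspase cascade when it leaves mitochondria. Its normalized count was 756, 591, 674 and 875 in ZL rats, 387, 371, 466 and 325 in ZF rats and 291, 269, 346 and 242 in ZF-SGLT2i rats. The 3 groups were stepped, with all ZF rats below all ZL rats and only ZF rat 5 inside the ZF-SGLT2i range. From ZL to ZF the change was -0.90 (SE 0.136, 95% interval -1.19 to -0.61, adjusted p = 0.000994), the largest fall of any member. It kept its sign and its call under all 24 alternative settings, between -0.99 and -0.71, with adjusted p from 4.08e-08 to 0.00476. The annotation lists 7 Cycs pseudogenes in the rat, and how the authors' counting divided reads between them and Cycs could not be checked; 41 of the 86 members have at least 1 listed pseudogene.

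**Figure D2:**
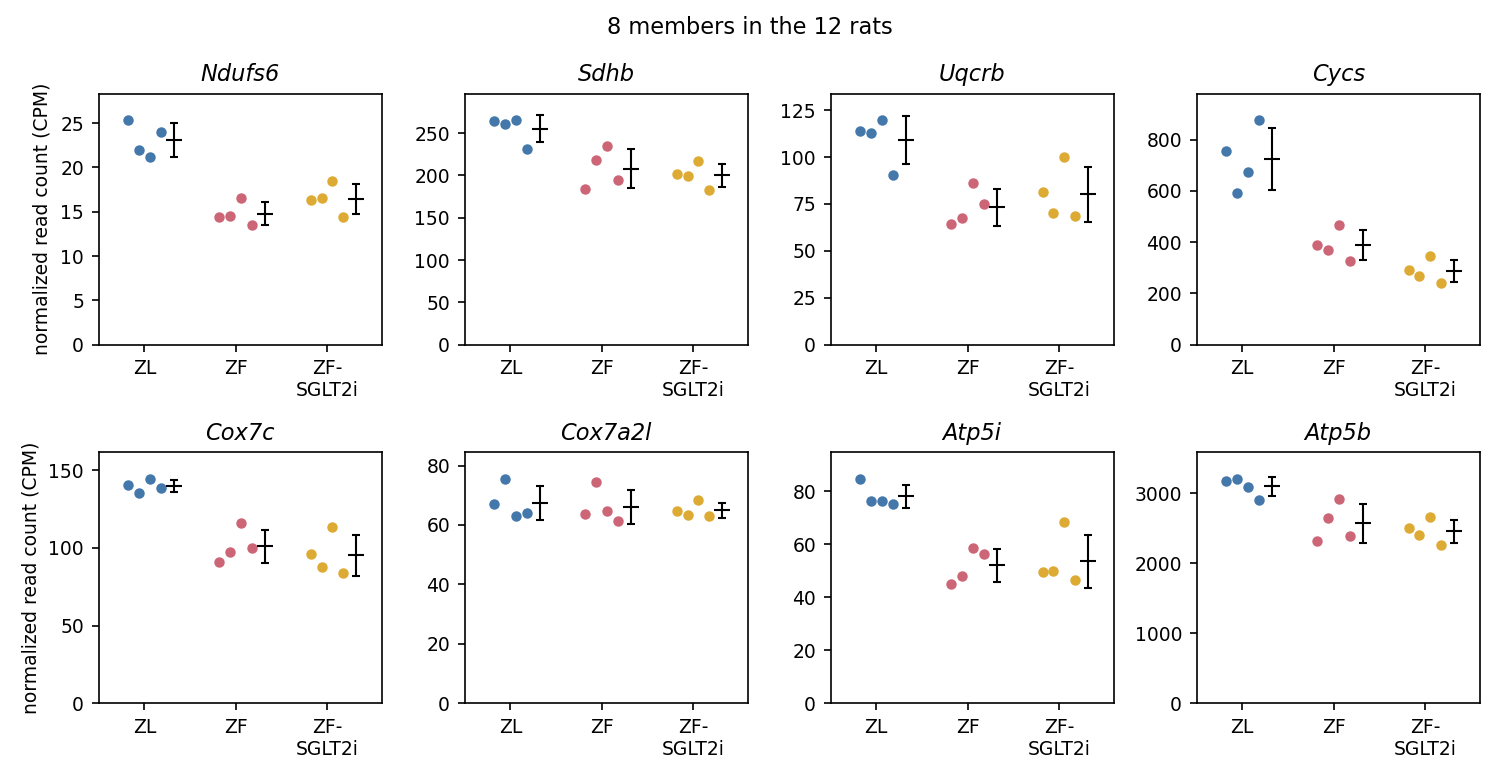
Scaled count of 8 members in each of the 12 rats (points) with the group mean and SD (bar), on linear axes that start at 0. The ZF and ZF-SGLT2i rats lie below the ZL rats in Ndufs6, Uqcrb, Cycs, Cox7c and Atp5i, apart from ZF-SGLT2i rat 4 in Uqcrb, while ZF rat 4 reaches the ZL range in Sdhb and Atp5b and the 3 groups coincide in Cox7a2l.

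Complex IV, cytochrome c oxidase, had 10 of 11 tested genes lower in ZF rats (median -0.36), with 8 of the 11 free of overlap. Ndufa4, long counted with complex I and since assigned to complex IV, counted 232, 230.0, 248 and 239 in ZL rats, 148, 168, 182 and 161 in ZF rats and 162, 163, 199 and 143 in ZF-SGLT2i rats, and changed by -0.53 (SE 0.0883, adjusted p = 0.00187). Cox7c, a small membrane subunit, counted 141, 136, 144 and 138 in ZL rats, 91.1, 97.4, 116 and 99.9 in ZF rats and 95.8, 87.5, 114 and 83.6 in ZF-SGLT2i rats. Every ZF and ZF-SGLT2i rat was below every ZL rat in both. The change of Cox7c was -0.47 (SE 0.0908, adjusted p = 0.00412).

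Cox5a and Cox5b, matrix-side subunits around the catalytic core, changed by -0.45 (SE 0.111, adjusted p = 0.0132) and -0.36 (SE 0.0806, adjusted p = 0.00815). Cox5a counted 194, 176, 192 and 181 in ZL rats and 119, 135, 163 and 128 in ZF rats, and Cox5b counted 219, 221, 218 and 187 in ZL rats and 149, 168, 179 and 159 in ZF rats. Neither overlapped. Cox4i1, the regulatory subunit that takes part in the response to ATP, was lowered least among those called. It counted 466, 489.6, 434 and 426 in ZL rats and 364, 399, 429 and 355 in ZF rats, with ZF rat 4 inside the ZL range and a change of -0.23 (SE 0.0752, adjusted p = 0.0454). The Cox4i1 call was lost when any of ZL rats 1, 2 and 3, ZF rats 2, 3 and 5 or ZF-SGLT2i rats 2 and 3 was left out. Sdha and Cox4i1 were also not called by edgeR, with the ZF and ZL rats fitted alone or with the ribosomal RNA share as a covariate. The call of Cox4i1 was also lost with rescaling by median ratios, those of Uqcrc2 and Atp5a1 with the ZF and ZL rats alone, and that of Uqcr10 with the covariate.

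Several complex IV subunits exist as a widely expressed form and a form found in particular tissues. The widely expressed forms Cox6a1 (-0.42, adjusted p = 0.00426), Cox7a2 (-0.35, adjusted p = 0.00313), Cox7b (-0.36, adjusted p = 0.0198) and Cox8a (-0.36, adjusted p = 0.0176) were all lower in ZF rats. Cox7b lost its call without ZL rat 1 or ZF rat 2, and Cox8a without ZL rat 1 or ZF rat 2 or 5. Their muscle or testis partners Cox6a2, Cox6b2 and Cox8b and the lung form Cox4i2 were too low to test in all groups, and Cox6b1, Cox7a1, Cox7b2 and Cox8c were not analysed here.

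A pair of relatives with other known roles was not called. Cox7a2l, which joins complexes III and IV into supercomplexes, counted 66.9, 75.5, 63.0 and 64.0 in ZL rats, 63.9, 74.5, 64.6 and 61.4 in ZF rats and 64.8, 63.3, 68.3 and 63.1 in ZF-SGLT2i rats. The groups coincided, with a change of -0.03 (95% interval -0.18 to 0.13, adjusted p = 0.831). Ndufa4l2, the paralog of Ndufa4 known to be induced by low oxygen, was at 1.62, 1.73, 1.13 and 2.5 in ZL rats, 2.68, 1.7, 2.39 and 2.51 in ZF rats and 2.0, 1.72, 1.31 and 1.89 in ZF-SGLT2i rats. It had the largest positive change of any member, 0.29, but rested on as few as 10 reads in a rat, the groups overlapped, and the 95% interval ran from -0.07 to 0.65 (adjusted p = 0.252).

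Complex V, the ATP synthase, had 16 of its 17 genes lower in ZF rats (median -0.35), all 16 without overlap. The fall was seen in each of its modules: 4 of 5 genes of the F1 head (median -0.32), 4 of 4 of the peripheral stalk (-0.36), 3 of 3 encoding the c-ring (-0.37) and 3 of 3 small membrane subunits that shape the enzyme's dimers (-0.55). Atp5s and Atp5sl, which are not subunits, were lower too (median -0.28). Differences between the modules were not tested.

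Atp5i, a small membrane subunit (subunit e), counted 84.7, 76.5, 76.5 and 75.2 in ZL rats, 45.2, 48.2, 58.5 and 56.3 in ZF rats and 49.4, 49.9, 68.5 and 46.7 in ZF-SGLT2i rats, and changed by -0.59 (SE 0.112, adjusted p = 0.0038). Its neighbour in the membrane, Atp5j2 (subunit f), counted 133, 127, 127 and 117 in ZL rats, 77.9, 83.1, 97.9 and 86.4 in ZF rats and 91.4, 82.9, 104 and 77.8 in ZF-SGLT2i rats. The lowest ZL rat lay above all 8 other rats in each. Atp5j2 changed by -0.55 (SE 0.0886, adjusted p = 0.00147), and Atp5g3, which encodes the subunit of the rotating c-ring, by -0.49 (SE 0.0896, adjusted p = 0.00297).

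Atp5a1, the alpha subunit of the head, counted 2007, 1905, 1882 and 1784 in ZL rats, 1355, 1526, 1731 and 1370.4 in ZF rats and 1459.7, 1406, 1609.7 and 1264 in ZF-SGLT2i rats, a change of -0.35 (SE 0.0996, adjusted p = 0.0277) that was no longer called without ZL rat 1 or ZF rat 2, 3 or 5. Atp5b, the catalytic beta subunit, counted 3184, 3209, 3097 and 2913 in ZL rats, 2323, 2655, 2927 and 2387 in ZF rats and 2501, 2407, 2660.4 and 2263 in ZF-SGLT2i rats. ZF rat 4 lay just above ZL rat 4, and the change of -0.27 (95% interval -0.49 to -0.06, adjusted p = 0.0754) did not pass the test.

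The 10 members not called in ZF vs ZL were thus Ndufs4, Cyc1 and Atp5b among subunits, Cox7a2l, Ndufa4l2 and the 5 assembly factors Ndufaf1, Ndufaf4, Ndufaf5, Ndufaf6 and Ndufaf7. Leaving these relatives, the remaining assembly factor and Atp5s and Atp5sl aside, 69 of 72 subunits proper were lower. By abundance, 19 of 21 members with a mean normalized count of at least 200, 43 of 45 from 50 to 200 and 10 of 16 under 50 were called, with medians of -0.35, -0.36 and -0.28.

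The ZF-SGLT2i and ZF groups were compared to ask whether canagliflozin altered these transcripts. No member was called: 0 of 82 passed the limma test, against 3.15% of all genes tested. At an unadjusted p below 0.05 there were 3, Cycs, Ndufaf6 and Atp5sl, against 17.2% of all genes. The signs were split, with 43 members lower and 39 higher and a median log2 fold change of -0.0081 (0.0064 over all genes). In no member were the 2 groups free of overlap. Over all 11633 genes tested, every treated rat was below every ZF rat in 655 (5.63%) and above every ZF rat in 645. The balance of signs rested on single rats: 65 members were negative without ZF-SGLT2i rat 4 (median -0.06) and 62 without ZF rat 2 (median -0.04), but 21 without ZF-SGLT2i rat 6 (median 0.04) and 22 without ZF rat 4 (median 0.05). With reads scaled by library size alone 63 members were negative (median -0.06), while the median of all genes was -0.04. The edgeR test on read counts also called 0, while DESeq2 called 1, Cycs. A change smaller than these errors could not be seen with 4 against 4 rats: the median 95% interval of a member ran from -0.18 to 0.17, and over all members the interval limits lay between -0.72 and 0.39.

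By complex, the medians of ZF-SGLT2i vs ZF were 0.0078 for complex I, -0.052 for complex II, 0.0043 for complex III, -0.0063 for complex IV, -0.0099 for complex V and -0.098 for the complex I assembly factors. The member furthest from 0 was Cycs at -0.43 (SE 0.136, 95% interval -0.72 to -0.14, unadjusted p = 0.00698 and adjusted p = 0.111 by limma). The mean of Cycs was 387 ± 58.7 (SD, n = 4) in ZF rats and 287 ± 44.3 in ZF-SGLT2i rats, and the groups overlapped by ZF rat 5. It passed the threshold with the replicate block, with array quality weights and with DESeq2, as the only member in each. Ndufaf6, an assembly factor, counted 11.3, 11.4, 10.9 and 13.8 in ZF rats and 9.71, 9.79, 11.4 and 7.91 in treated rats, at -0.27, and Atp5sl counted 44.5, 49.5, 47.7 and 47.0 against 56.2, 52.2, 49.0 and 51.6, at 0.14. Both overlapped. The largest positive change was that of Ndufa12 at 0.15 (95% interval -0.06 to 0.37).

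The ZF-SGLT2i and ZL groups share their samples with the comparisons above and are given to show where treated rats stood against lean ones. Of the 82 members, 69 were lower in ZF-SGLT2i rats and 0 were higher (median -0.36), against 15.0% of all genes tested called lower. In 58 members every ZF-SGLT2i rat was below every ZL rat, against 15.1% of all genes. The calls covered 30 of 33 complex I subunits, 3 of 4 in complex II, 9 of 9 in complex III, 9 of 11 in complex IV and 16 of 17 in complex V, with 1 of 6 assembly factors. Cycs was lower by -1.33 on the log2 scale (adjusted p = 2.72e-05, a mean lower by 60.4%), and Sdha, at -0.19 (adjusted p = 0.106), was the complex II gene not called.

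The share of ribosomal RNA left in the libraries moved with the treated group. Rn28s and Rn45s together took 10.0%, 12.0%, 7.25% and 10.6% of reads in ZL rats, 11.2%, 12.0%, 8.82% and 11.8% in ZF rats and 12.0%, 14.3%, 11.5% and 15.2% in ZF-SGLT2i rats. With that share as a covariate, 12 members were lower in ZF-SGLT2i than in ZL rats (median -0.23), 66 were lower in ZF than in ZL rats (median -0.32) and 0 were called in ZF-SGLT2i vs ZF, with 11 at an unadjusted p below 0.05. The covariate also reduced the calls over all genes, in ZF-SGLT2i vs ZL from 3184 to 827 of 11633 (463 of them lower) and in ZF vs ZL from 2185 to 1833. In ZF-SGLT2i vs ZF the median turned to 0.08 and 18 of 82 members were negative. Its part in the result was not tested.

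Among rats of a group, the members varied together. The summed normalized count of the 82 members was 19324, 18577, 18606 and 17717 in ZL rats, 13293, 14685, 16378 and 13786 in ZF rats and 14266, 13924, 15974 and 12866 in ZF-SGLT2i rats. The lowest ZL rat was above all 8 obese rats, while the ZF and ZF-SGLT2i rats were mixed. ZF rat 4 was the highest of its group in 66 of 82 members and ZF rat 2 the lowest in 56, and ZF-SGLT2i rat 4 was the highest in 76 and rat 6 the lowest in 67. In the ZL group, rat 1 was the highest in 34 and rat 4 the lowest in 47. Median differences from the ZL mean were -0.46, -0.34, -0.21 and -0.39 in the ZF rats and -0.37, -0.38, -0.19 and -0.50 in the ZF-SGLT2i rats on the log2 scale.

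**Figure D3:**
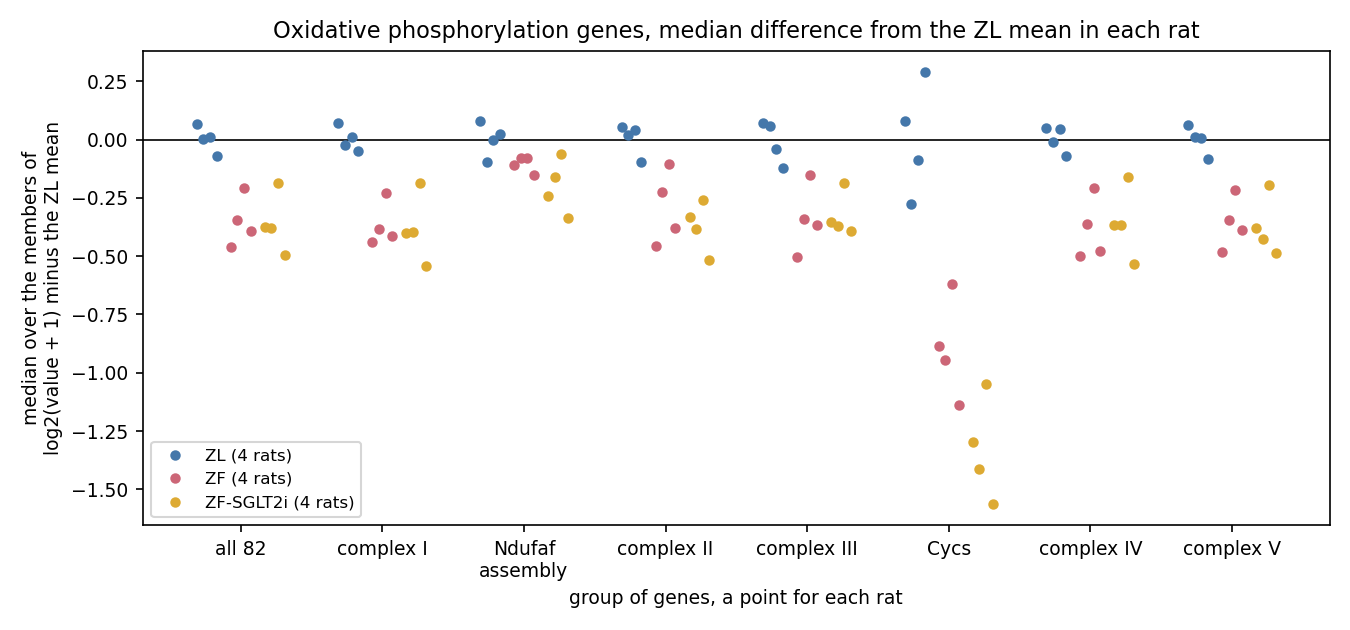
Median difference of the members of each complex from the ZL mean on the log2(value + 1) scale, with a point for each of the 12 rats in the order of their numbers. All ZF and ZF-SGLT2i rats are below 0 in every column, and over all 82 members rat 4 is nearest to 0 in both groups, at -0.21 and -0.19.

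As a share of all reads on genes, without any scaling factor, the 82 members took 1.85%, 1.76%, 1.85% and 1.69% in ZL rats, 1.40%, 1.48%, 1.71% and 1.43% in ZF rats and 1.46%, 1.38%, 1.59% and 1.29% in ZF-SGLT2i rats. On this measure ZF rat 4 lay inside the ZL range, and the other 7 obese rats were below it. Reads on genes here include those on Rn28s and Rn45s. These took 8.82% in ZF rat 4 and 10.6% in ZL rat 4, the lowest ZL rat on this measure. The part of ribosomal RNA in this overlap was not tested.

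Other mitochondrial genes were read in lists. Of 16 tested genes of the citric acid cycle and pyruvate dehydrogenase, Sdh genes not included, 12 were lower in ZF than in ZL rats and 0 higher (median -0.30). Chosen after their values were seen, examples are both subunits of the pyruvate dehydrogenase E1 enzyme, Pdha1 (646 ± 47.1 to 477 ± 31.4, log2 fold change -0.44, adjusted p = 0.00196) and Pdhb (150.1 ± 4.02 to 114 ± 3.78, -0.39, adjusted p = 0.000364). Citrate synthase, Cs, was not called at -0.19 (adjusted p = 0.108).

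Of 15 genes of mitochondrial import, carriers and chaperones, 9 were lower (median -0.26). Hspd1, the matrix chaperonin, went from 623 ± 50.8 to 430.3 ± 66.0 (-0.54, adjusted p = 0.00411), Vdac1, the outer membrane channel, from 675 ± 76.1 to 476 ± 55.8 (-0.50, adjusted p = 0.00506), and Slc25a5, the ADP/ATP carrier, changed by -0.34 (adjusted p = 0.00942). Mitochondrial ribosomal proteins, which translate the subunits encoded in mitochondrial DNA, had 23 of 69 lower (median -0.21). Assembly factors outside the Ndufaf genes had 7 of 32 lower (median -0.20), among them the copper chaperone Cox17 (-0.38, adjusted p = 0.00572). None of these 132 genes was higher, while 10.6% of all genes tested were called lower and 8.19% higher.

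The call counts of these lists depended on the scaling as well. With quantile normalization 4 of 16, 4 of 15, 20 of 69 and 3 of 32 genes of the 4 lists were lower, and with reads scaled by library size alone 3, 3, 6 and 1, beside 56 and 40 of the 82 members and 942 and 609 of all 11633 genes. All medians were below 0 in each setting. In ZF-SGLT2i vs ZF none of the 132 genes was called by limma, edgeR or DESeq2, and 4 had an unadjusted p below 0.05 by limma. By limma 3.15% of all genes were called and 17.2% had an unadjusted p below 0.05. In ZF-SGLT2i vs ZL 12, 10, 31 and 9 were lower, against 15.0% of all genes.

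**Figure D4:**
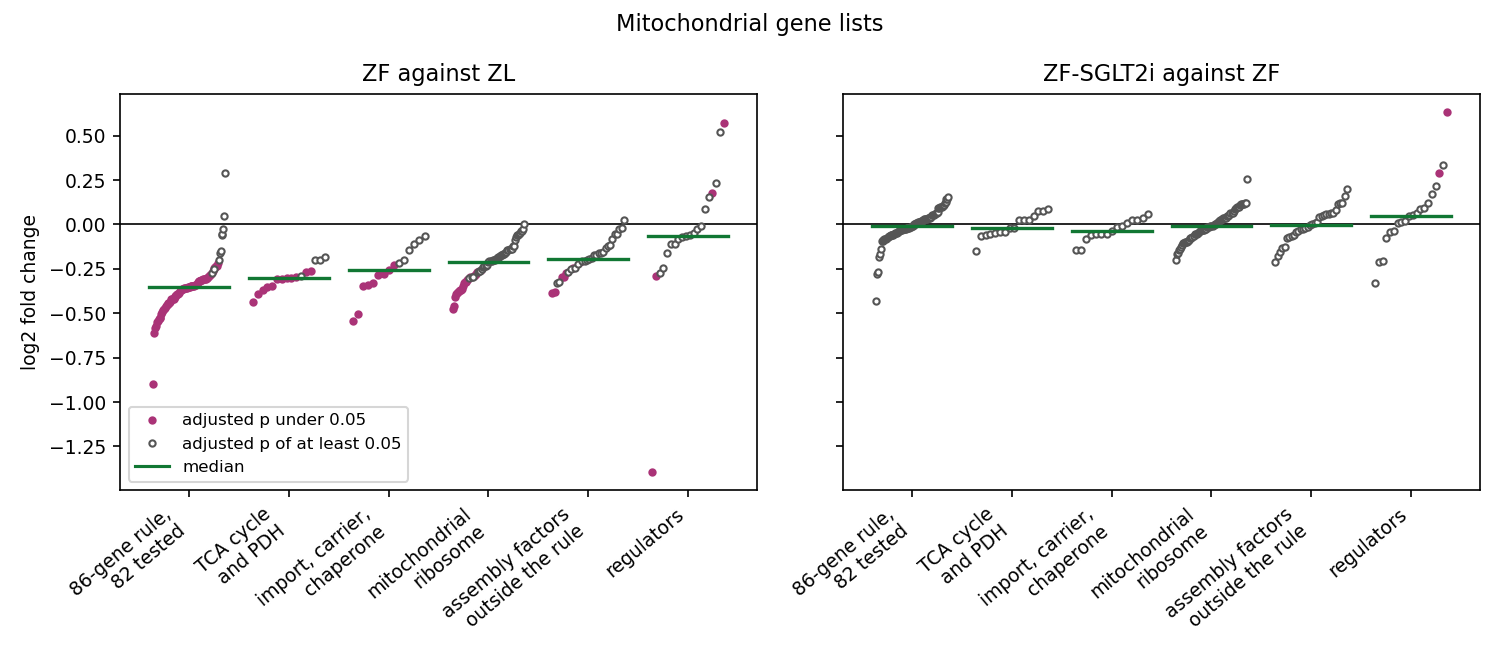
Log2 fold changes of the members and of the other mitochondrial gene lists in ZF vs ZL and ZF-SGLT2i vs ZF; each point is a gene, filled where it passed the limma test, and the bars are medians. In ZF vs ZL the medians run from -0.35 in the members to -0.06 in the regulators, and in ZF-SGLT2i vs ZF they lie near 0.

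Factors that control respiratory genes were read as a further list. Of 20 regulators tested, 2 were higher and 2 lower in ZF than in ZL rats (median -0.06), a share near the 18.8% called over all genes. The coactivator PGC-1α, Ppargc1a, counted 116 ± 15.3 (SD, n = 4) in the lean rats, 103 ± 9.67 in ZF rats and 119.7 ± 7.20 after canagliflozin, with -0.16 in ZF vs ZL (adjusted p = 0.235) and 0.22 in ZF-SGLT2i vs ZF (adjusted p = 0.223). Factors whose letters were searched above were not called in ZF vs ZL either: Nrf1 (-0.08, adjusted p = 0.583), Gabpa (-0.11, adjusted p = 0.280), Yy1 (-0.11, adjusted p = 0.158) and Esrra (-0.06, adjusted p = 0.655). The mitochondrial DNA packaging factor Tfam was at -0.07 (adjusted p = 0.552). The signs of Esrra and Esrrg turned positive with quantile normalization and with reads scaled by library size alone, those of Nrf1 and Tfam with the latter, as did the median of the list, to 0.04. The median of all genes tested was 0.09 with library size alone. Esrrg, an ERR of tissues rich in mitochondria, was at -0.05 in ZF vs ZL (adjusted p = 0.679) and was higher in ZF-SGLT2i than in ZF rats, at 138 ± 5.37 against 113 ± 8.57 (0.29, adjusted p = 0.0424). Its lowest treated rat, at 132, was above the highest ZF rat, at 123, but the call was lost with quantile normalization (adjusted p = 0.0506) and with reads scaled by library size alone (adjusted p = 0.0856).

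Among the regulators called, the fatty acid receptors had the largest changes. These genes were named after their values were seen. Ppara, which switches on fatty acid oxidation, was stepped across the groups, from 45.0 ± 5.97 in ZL to 67.7 ± 12.6 in ZF (0.57, adjusted p = 0.00857) and to 105 ± 11.3 in ZF-SGLT2i rats (0.64 against ZF, adjusted p = 0.0162). Ppard, its relative, went from 94.1 ± 11.4 in ZL rats to 35.0 ± 0.489 in ZF and 36.2 ± 1.41 in ZF-SGLT2i rats, with -1.39 in ZF vs ZL (adjusted p = 2.15e-07) and 0.05 in ZF-SGLT2i vs ZF (adjusted p = 0.805). In both genes the ZL rats were apart from all 8 obese rats. Hif1a, the oxygen-sensing factor, was higher in ZF rats by 0.18 (adjusted p = 0.0401), and Tfb2m, which starts mitochondrial transcription, was lower at -0.29 (adjusted p = 0.0256), a call lost with reads scaled by library size alone (adjusted p = 0.140).

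Members with and without the promoter letters fell by nearly the same amount. Their median log2 fold change in ZF vs ZL was -0.36 in the 21 tested members with NRF1 letters and -0.35 in the 50 without, -0.35 and -0.35 for ETS, -0.37 and -0.35 for ERR, and -0.35 and -0.35 for YY1. These medians are descriptions, and no test was made of them.

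Markers of cell types differed between the groups beside the respiratory genes. The summed normalized count of the 12 proximal tubule markers, none of which was at 0, was 29757, 28692, 30495 and 25826 in ZL rats, 22634, 22950.4, 27691 and 21726 in ZF rats and 23785, 23026, 23359 and 19544 in ZF-SGLT2i rats. ZF rat 4 was highest and ZF-SGLT2i rat 6 lowest within their groups, as in the sum of the members, but the lowest ZF rat was rat 5 here and rat 2 in the members, and the highest ZF-SGLT2i rat was rat 2 here and rat 4 in the members. Gene by gene the list was mixed. Aqp1, Gatm, Miox and Slc27a2 were lower in ZF rats and Slc22a6 and Pck1 higher, with a median of -0.22 over the 12, -0.01 with quantile normalization, and the calls of Aqp1 and Gatm were lost with quantile normalization and with library size alone. Lrp2, which made up the largest part of that sum, was at -0.47 (adjusted p = 0.0731). Slc5a2, the target of canagliflozin, counted 426 ± 118 in the lean rats, 460.1 ± 67.7 in ZF rats and 401 ± 29.4 in the treated rats and was called in no comparison. The part of the proximal tubule in the result was not tested.

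Injured tubule markers were higher in ZF rats, 6 of 8 (median 0.87). Their sum, to which Spp1 (osteopontin) gave the most reads, was 559, 515, 463 and 557 in ZL rats, 2096, 850.4, 1614 and 724 in ZF rats and 1316, 1280.5, 959 and 582 in ZF-SGLT2i rats. It did not order the ZF rats as the members did, since ZF rats 2 and 4, the lowest and highest in the members, had the 2 highest sums. Podocyte markers were higher in 4 of 8 (median 0.31), fibroblast and smooth muscle markers in 2 of 8 (median 0.41) and collecting duct markers in 1 of 8 (median 0.29). With library size alone 7 podocyte, 3 fibroblast and smooth muscle and 4 collecting duct markers were higher, where 2028 of all 11633 genes were higher, against 953 with the authors' factors. Thick limb and distal tubule markers had 1 of 7 lower, and 0 of 8 endothelial, 0 of 6 macrophage, 0 of 2 lymphocyte, 0 of 3 blood and 0 of 2 adipocyte markers tested were called by limma. Of these 21 markers 9 had an unadjusted p below 0.05 by limma, against 3848 of all 11633 genes. The edgeR test called 1 of the 21 and DESeq2 called 3, all higher, against 1014 and 1092 of all genes higher. In ZF-SGLT2i vs ZF, 4 of 8 fibroblast and smooth muscle markers and 1 of 8 injured tubule markers (median -0.35) were lower. Of the collecting duct markers 1 of 8 was higher, and of the 12 proximal tubule markers Slc27a2 was higher and Slc22a6 lower. Over all 11633 genes 204 were lower and 162 higher in this comparison. In ZF-SGLT2i vs ZL, 6 of 8 collecting duct markers (median 0.70), 5 of 8 podocyte markers (median 0.42) and 2 of 8 endothelial markers were higher, against 12.4% of all genes, and 3 of 8 fibroblast and smooth muscle markers were lower. Of the 8 injured tubule markers 5 were higher and 1 lower, of the 12 proximal tubule markers 1 was higher and 4 lower (median -0.20), and of the 7 thick limb and distal tubule markers 1 was higher and 2 lower. The part of these cell types in the result was not tested.

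**Figure D5:**
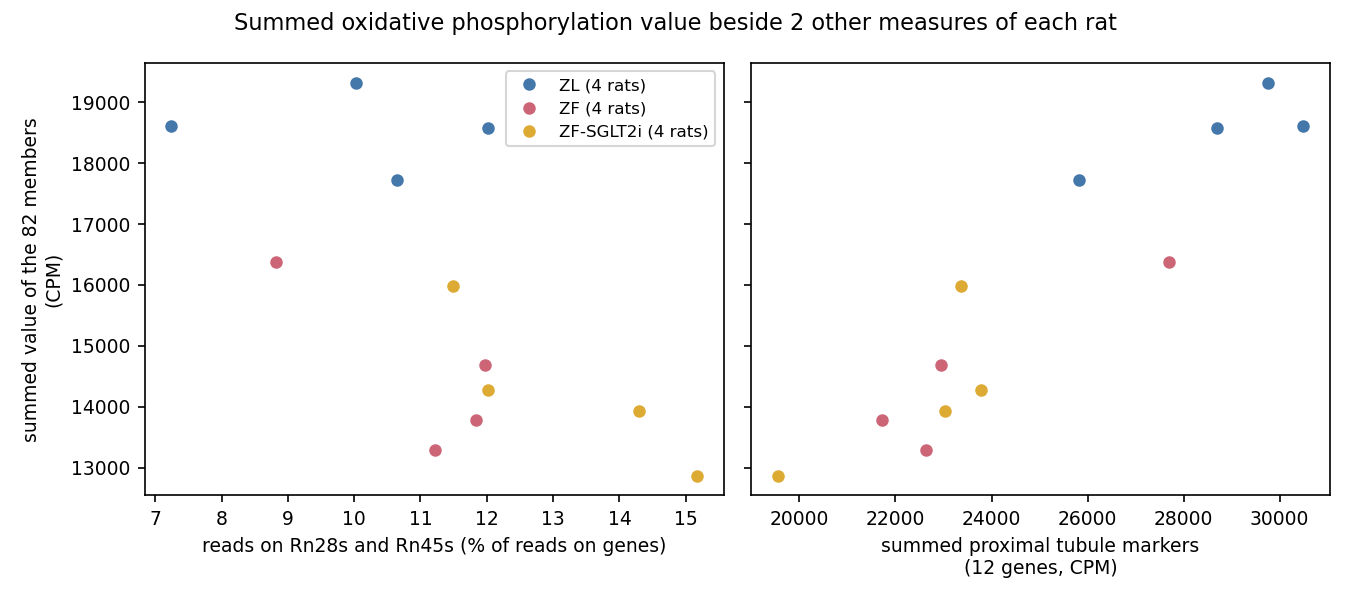
Summed normalized count of the 82 members in each rat (y axis, CPM, not starting at 0) against the percentage of reads on Rn28s and Rn45s (left) and the summed count of the 12 proximal tubule markers (right, CPM), with a point for each rat and a color for each group. The members' sums run from 17717 to 19324 in ZL rats and from 12866 to 16378 in the other 8 rats, and the ribosomal RNA shares of ZL and ZF rats overlap.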

How the data were processed

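Total RNA from whole renal cortex was depleted of ribosomal RNA, made into strand-specific libraries and sequenced in paired ends by the authors. The submitters' processing notes list Trimmomatic 0.38, Bowtie2, RSEM 1.3.0, edgeR and the rn6 build, without their roles or the annotation, which are not given in the sources used here. The authors deposited a signal table of 13151 genes in 12 rats, which holds CPM with edgeR's TMM scaling factors (largest gap to that formula 0). In every column 100% of values were whole multiples of the value of 1 read (tolerance 0.01), so read counts were recovered. No sample column was unmapped.

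Values were analysed as log2(value + 1), for genes at 1 or more in at least 4 of 12 rats (11633 genes), with limma 3.58.1 (R 4.3.3) in a fit of all 3 groups with a mean-variance trend, with Benjamini-Hochberg adjustment across the genes tested. Fold changes on this scale understate those of low genes. Nothing in the sources says more of the replicates than that they are separate rats. Recovered counts went to edgeR 4.0.16, which called 68 members in ZF vs ZL, and to DESeq2 1.42.0. Depth of 8824980 to 12210257 reads per rat limits genes with few reads by counting error. Rats within a group differed by more than sampling noise (chi-square per gene 5.56 to 51.7). The limma fit was tested on simulated data.

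Members named in full were, per complex, up to 3 called members with the largest change in ZF vs ZL and ZF-SGLT2i vs ZF, the largest rise and fall in each comparison, a fixed set of core subunits and paralogs, and 6 regulators; other genes named were chosen after their values were seen. Members, gene lists and tests were chosen with earlier results of these data known. Scalings, filters, tools and left-out rats were varied, and 2 alternatives, the ribosomal RNA share as a covariate and library size scaling without TMM factors, were added after seeing the data. Symbols were matched to the RefSeq annotation of GRCr8, 69 by symbol and 17 by synonym, and promoters came from the same source. Gene lengths and protein sequences were not used here. Tables and plots were made with python 3.11.15, pandas 2.3.3, numpy 2.4.6 and matplotlib 3.10.9.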

Additional observations from a re-analysis of the deposited data

Results flagged for a closer look

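In 7 of 120 groups of 4 rats examined for 34 members and 6 regulators named, the highest or lowest rat stood far from the other 3 by Dixon's ratio, and chance gives about 1 in 20, which is 6. In Atp5i, ZL rat 1 was at 84.7 with the others from 75.2 to 76.5, and ZF-SGLT2i rat 4 was at 68.5 with the others from 46.7 to 49.9. ZF-SGLT2i rat 4 was also high in Ndufv1, at 205 against 166 to 172, and in Uqcrc2, at 327 against 264 to 273. ZL rat 4 was low in Cox5b, at 187 against 218 to 221, and in Sdhb, at 231 against 260.3 to 265. ZL rat 2 was low in Ndufb10, at 58.9 against 66.2 to 67.4.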

How the results depend on the processing

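All 72 members lower in ZF than in ZL rats and all 69 lower in ZF-SGLT2i than in ZL rats stayed below 0 under the 24 alternatives, and none reversed. Of the 72, 50 were called in all 12 fits that left out a rat, 40 in every fit but the replicate block and 23 in every fit. Leaving out a rat gave 50 (without ZL rat 1) to 72 members in ZF vs ZL, 0 in ZF-SGLT2i vs ZF and 55 (without ZF-SGLT2i rat 6) to 74 in ZF-SGLT2i vs ZL, with all-gene calls of 1384 without ZL rat 1 and 2238 without ZF-SGLT2i rat 6 against 2185 and 3184 with all rats. Over the alternatives of the named members called in ZF vs ZL or ZF-SGLT2i vs ZL, 1235 values kept the call and 181 lost it.

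With the rat number as a replicate block, 25 members were called in ZF vs ZL, 1 in ZF-SGLT2i vs ZF and 28 in ZF-SGLT2i vs ZL, while the calls over all 11633 genes went from 2185 to 807, 366 to 223 and 3184 to 1502. The numbers do not pair the rats: over 9 pairs of the same number, deviations from the group mean correlated from -0.376 to 0.253, with 2 over 0.1. Array quality weights and DESeq2 each called 1 member, Cycs, in ZF-SGLT2i vs ZF, with 689 and 641 calls over all genes against 366. Without TMM factors 40 members were called in ZF vs ZL (2637 of all genes, 609 lower), and with the ribosomal RNA share as a covariate 12 in ZF-SGLT2i vs ZL (827 of all genes, 463 lower), where the share was higher in the treated group. The cause of these changes was not tested.

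Scaling also moved the balance of all genes: of the genes called in ZF vs ZL, 56.4% were lower as deposited, 46.1% with quantile normalization and 23.1% without TMM factors. In ZF-SGLT2i vs ZF 55.7% were lower as deposited and 72.5% without TMM factors, and in ZF-SGLT2i vs ZL 54.7% and 37.8%. Genes with few reads, such as Ndufa4l2, allow no firm statement at this depth.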
